A study of Mus musculus with 8 samples.

Results

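Notch signalling joins neighbouring cells. Delta-like and Jagged ligands on one cell bind Notch receptors on the next, the receptor is cut within the membrane, and its freed intracellular domain joins the DNA-binding protein RBPJ to switch on target genes such as those of the Hes and Hey families. Without the receptor domain RBPJ holds corepressors. In the developing nervous system the pathway is known for deciding which progenitors become neurons and which stay undifferentiated.

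The chromatin around 10 genes was described here: the 4 receptor genes Notch1, Notch2, Notch3 and Notch4, the 3 Delta-like ligand genes Dll1, Dll3 and Dll4, the 2 Jagged ligand genes Jag1 and Jag2, and Rbpj, the mediator. They were chosen by name among the 21951 protein-coding genes of the GENCODE M21 annotation, and no measured value enters the rule, though earlier results of these data were known when they were chosen. In chromatin immunoprecipitation with sequencing (ChIP-seq), an antibody pulls down a protein with the DNA it holds, and peaks are called where the sequenced fragments of that DNA pile up. All 8 libraries came from the mouse embryonic stem cell (ESC) line E14Tg2a at passages 37 to 40. Cells were either kept in leukemia inhibitory factor (LIF), which holds them pluripotent, or grown without LIF and given 1 µM retinoic acid (RA) for 48 h to obtain neuronal cells (NCs). Antibodies to FGFR1, a growth factor receptor also found in the nucleus, to the nuclear receptor RXR and to the orphan nuclear receptor Nur77 were used in both states, and an antibody to the histone variant H3.3 in NCs only. A single group, FGFR1 in NCs, was replicated, by 2 libraries of which the second is titled as a separate experiment. The other 6 groups had 1 library each. Every group comes from a single cell line, ChIP material was pooled over culture plates, and a peak in more of the cells cannot be told apart from a stronger one in fewer cells. The files hold peaks and no expression values, so the identity of the NCs was not checked against marker genes.

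A gene was counted as called in a library when a peak overlapped, by at least 20 bp, the window from 5 kb upstream to 1 kb downstream of any of its annotated transcript starts. Other peaks inside the gene were counted as gene-body peaks. Each peak is given with its deposited fold (fragments at the summit over the local background, each with 1 added) and its −log10 p, which the peak caller computed within 1 library and which grows with depth. Neither is a comparison between libraries. The number of fragments at each summit, solved from those 2 values, is given with a 95% Poisson interval that covers counting error only. Depth, taken as the background solved the same way, was lowest for H3.3 at 1.27 fragments per kb, 1.87 for RXR in NCs and 2.71 for FGFR1 in ESCs, and highest at 7.09 for RXR in ESCs. The FGFR1 libraries from NCs had 4.16 (replicate 1) and 6.78 (replicate 2). With 1 library in most groups no test between ESCs and NCs could be run, and no p-value between groups was computed.

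Of 176687 peaks in the 8 lists, 98 lay at the 10 genes, 45 of them in a promoter window and 53 in a gene body only. Peaks that overlapped were joined into 67 sites, of which 48 held a peak of a single library and 19 held peaks of at least 2. At no site did more than 4 libraries meet.

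The sequences that carry these peaks are shown first, all from the mm10 assembly (GRCm38.p6) and read 5′ to 3′ on the strand of the gene. The first group lies at the FGFR1 peaks of the NC libraries near receptor and Jagged starts, and capitals mark GC boxes (GGGCGG on either strand), the word most often found at these peaks. The Notch1 stretch, chr2:26503823-26503932, is the part of the replicate 2 peak upstream of the RefSeq start. None of its GC boxes lies wholly inside the 100 bp around the summit that the word counts below use. The box nearest the start is cut by the edge of that window. No Notch1 peak is among those counted with the word. The Notch2 stretch is chr3:98013437-98013537, the upstream part of the replicate 1 peak. The Jag1 stretch, chr2:137116871-137116970, surrounds the replicate 2 summit.
Notch1 start: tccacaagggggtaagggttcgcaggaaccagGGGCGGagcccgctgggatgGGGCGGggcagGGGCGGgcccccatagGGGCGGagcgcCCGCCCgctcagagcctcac
Notch2 start: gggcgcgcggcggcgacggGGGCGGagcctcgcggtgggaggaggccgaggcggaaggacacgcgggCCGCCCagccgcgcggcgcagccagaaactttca
Jag1 upstream: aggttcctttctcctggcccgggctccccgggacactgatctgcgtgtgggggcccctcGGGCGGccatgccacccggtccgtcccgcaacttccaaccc

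The second group shows stretches shared by the peaks of several libraries away from the main starts, and it holds none of the words searched, so it has no capitals. The Dll1 stretch, chr17:15374751-15374830, is common to 4 libraries. The Dll3 stretch, chr7:28294618-28294686, is common to both FGFR1 libraries from NCs. The Notch3 stretch, chr17:32143347-32143407, is common to these 2 and to RXR in ESCs. The Rbpj stretch, chr5:53589352-53589437, is common to FGFR1 replicate 2 and RXR in ESCs. The Notch1 stretch, chr2:26487988-26488081, is common to Nur77 and H3.3 in NCs. The first 3 lie in coding exons and the last 2 in introns.
Dll1 exon: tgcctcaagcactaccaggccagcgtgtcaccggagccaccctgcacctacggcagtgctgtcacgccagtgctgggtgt
Dll3 exon: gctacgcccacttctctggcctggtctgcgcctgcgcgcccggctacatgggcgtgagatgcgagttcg
Notch3 exon: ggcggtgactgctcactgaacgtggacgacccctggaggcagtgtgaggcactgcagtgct
Rbpj intron: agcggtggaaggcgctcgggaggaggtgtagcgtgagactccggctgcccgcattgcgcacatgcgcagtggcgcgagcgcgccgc
Notch1 intron: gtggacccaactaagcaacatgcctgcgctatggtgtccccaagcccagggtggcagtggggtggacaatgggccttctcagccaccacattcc

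The third group shows simple repeats under peaks of several antibodies. Capitals mark the longest run in which purines and pyrimidines alternate, counted as a tract from 20 bp. These are chr3:98090584-98090639 in a Notch2 intron, chr17:32167540-32167611 upstream of Notch3 and chr5:53499670-53499759 in an Rbpj intron, the last under the only FGFR1 peak that ESCs had at any of the 10 genes.
Notch2 repeat: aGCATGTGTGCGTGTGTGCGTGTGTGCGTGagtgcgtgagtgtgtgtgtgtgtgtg
Notch3 repeat: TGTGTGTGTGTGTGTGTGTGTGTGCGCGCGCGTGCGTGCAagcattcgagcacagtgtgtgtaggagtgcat
Rbpj repeat: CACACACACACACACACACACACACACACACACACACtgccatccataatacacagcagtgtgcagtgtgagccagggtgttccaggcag

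FGFR1 was found in the promoter window of none of the 10 genes in ESCs and of 9 and 7 of them in the NC libraries, a mean of 8 ± 1.41 (SD, n = 2). Replicate 1 called all but Dll4, and replicate 2 called Notch1, Notch2, Notch4, Dll1, Dll3, Jag1 and Rbpj, each of which replicate 1 also called. Among all protein-coding genes the same windows were called in 19.7% in ESCs, 55.9% in NC replicate 1 and 51.5% in replicate 2. Such calls were thus more frequent in NCs over all genes too. The 10 genes stood below the background in ESCs and above it in both NC libraries. A single gene more or less moves such a share by 10 percentage points. Because every annotated start counts, the joined windows ranged from 6.01 kb at Notch2 to 42.5 kb at Rbpj. A wider window can hold more peaks, and window size was not matched between the 10 genes and all genes. Called in both NC libraries and not in ESCs were 7 of the 10 genes, beside 26.0% of all protein-coding genes. Scaling the summit fragments of both NC libraries to the depth of the ESC library, an alternative chosen after seeing the data, left 9 and 7 genes called. The backgrounds were then 53.5% in replicate 1 and 45.7% in replicate 2, beside 19.7% in ESCs, so they too moved little. With the same number of peaks taken from each list, replicate 1 fell to 5 genes and replicate 2 stayed at 7, 4 of them called in both, while the backgrounds were 19.7% in ESCs, 21.5% in replicate 1 and 46.3% in replicate 2. When starts of protein-coding transcripts alone were used, replicate 1 called 6 genes and replicate 2 called 5. Notch4, Dll3 and Jag2 were then called by neither. No share over all genes is given for that setting. Of the 45 window peaks, 17 were nearest to a start of a retained-intron transcript and 7 to one of a processed transcript.

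RXR was called at 6 of the 10 genes in ESCs and 3 in NCs, with backgrounds of 46.4% and 26.2%. Notch2, Notch4, Jag1 and Rbpj were called in ESCs and not in NCs, Dll1 and Jag2 in both and Dll3 in NCs. Over all protein-coding genes 24.5% were called in ESCs alone, 21.8% in both states and 4.31% in NCs alone. This direction was not kept in every alternative. With the same number of peaks taken from each list RXR was called at 0 of the 10 genes in ESCs and 3 in NCs, with backgrounds of 18.4% and 17.0%. Scaled to the depth of the NC library RXR was also called at 0 in ESCs, where the background was then 4.58%, so a count of 0 there is near the general share. The ESC library was the deeper, and the part of depth in this direction was not tested. Nur77 was called at 2 genes in ESCs, Dll1 and Rbpj, and at 3 in NCs, Notch3, Dll3 and Jag2, against backgrounds of 29.8% and 30.9%. None of the 10 had a Nur77 call in both states, beside 17.5% of all protein-coding genes, a difference of fewer than 2 genes in 10. H3.3 was called at none of the 10, with a background of 17.9% in the library of lowest depth.

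**Figure D1:**
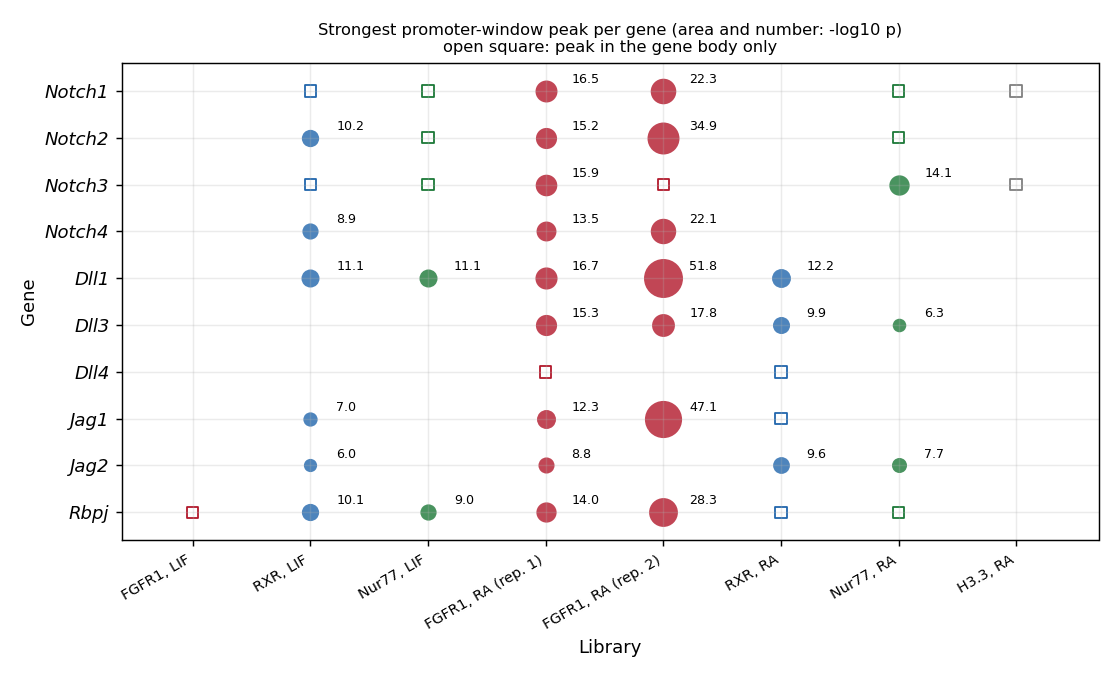
Strongest promoter-window peak of each of the 10 genes (rows) in each of the 8 libraries (columns). Circle area and the number beside it give the −log10 p, open squares mark a peak in the gene body only, and blanks mark no peak. The FGFR1 columns from NCs are filled for 9 and 7 genes, and the FGFR1 column from ESCs holds 1 open square, at Rbpj.

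**Figure D2:**
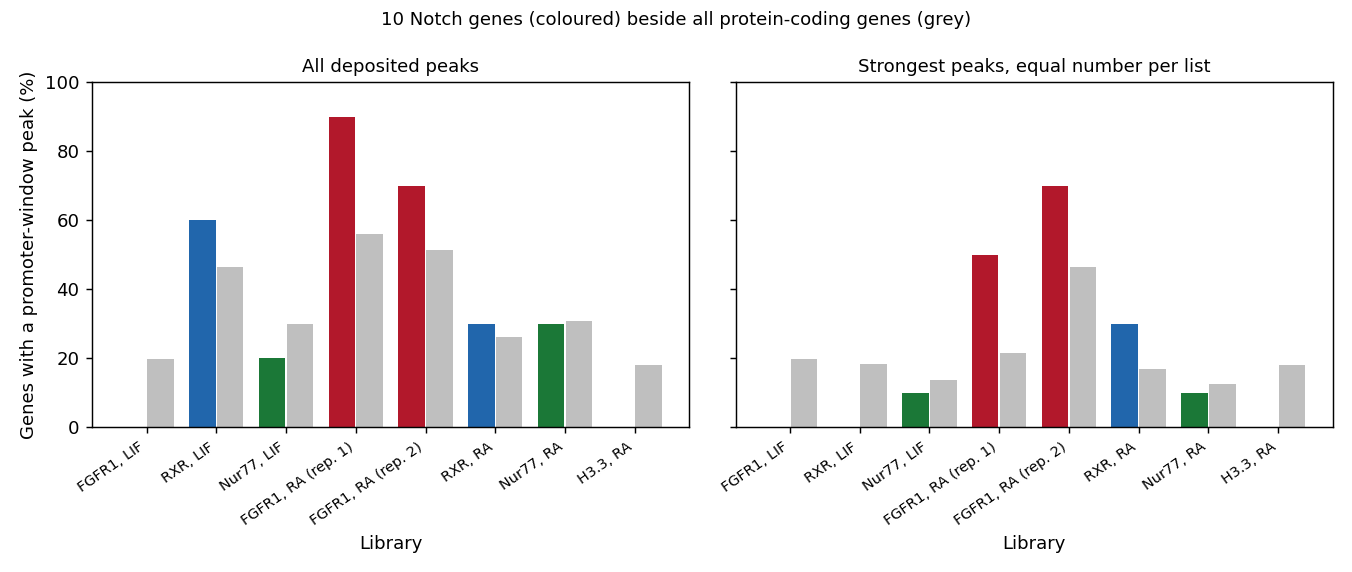
Share of the 10 Notch genes (coloured bars) and of all 21951 protein-coding genes (grey bars) with a promoter-window peak, by library, in percent. The left panel uses every deposited peak, and the right panel the strongest 11378 peaks of each list (all 10634 for H3.3); in the right panel FGFR1 stands at 50% and 70% of the 10 genes in NCs and 0% in ESCs.

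Gene-body peaks outside the windows were counted the same way. FGFR1 had them in 1 of the 10 genes in ESCs (background 11.2% of protein-coding genes), in 6 in NC replicate 1 (31.1%) and in 2 in replicate 2 (5.28%). RXR had them in 5 genes in ESCs (22.8%) and in 3 in NCs (14.2%). Nur77 had them in 4 genes in each state, with backgrounds of 20.6% in ESCs and 23% in NCs, and H3.3 in 2 genes (11.4%). The 10 genes range in length from 8.69 kb for Dll3 to 191 kb for Rbpj, so these shares cannot be set against the average gene without that difference.

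Among the receptors, Notch1 carried the best matched FGFR1 peaks at its main start. Notch1 (chr2:26457903-26516663, minus strand) encodes a receptor with known roles in neural progenitors. The replicate 1 peak had a fold of 9.16, a −log10 p of 16.5 and 17 fragments at the summit (9.90 to 27.2). The replicate 2 peak had a fold of 7.30, a −log10 p of 22.3 and 36 fragments (25.2 to 49.8). Both summits lay in the first untranslated exon, 51 and 30 bp inside the RefSeq start, and 21 bp from each other. They ranked within the first 18.2% and 43.4% of their lists. Replicate 2 had another peak 446 bp upstream of that start, with a −log10 p of 14.9. No other antibody had a peak in the Notch1 window in either state.

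The far end of Notch1 held another pair. In the last untranslated exon, 45.3 and 45.2 kb from the start, FGFR1 replicate 1 had a −log10 p of 17.0 and replicate 2 one of 13.6. A start of another gene, Gm13568, lies 1355 and 1480 bp from these summits and is nearer than any start of Notch1. This pair cannot be assigned to Notch1 by distance. RXR in ESCs had 2 peaks in coding exons, with a −log10 p of 10.2 and 6.14, and Nur77 in ESCs had 1, at 9.79. In NCs the Nur77 peak lay in an intron 15.8 kb from the start, with a −log10 p of 8.88, and overlapped an H3.3 peak of 7.23 that rested on 8 fragments (3.45 to 15.8). Only the FGFR1 peaks of the NC libraries thus lay at the Notch1 start, and the other antibodies had theirs in the gene body.

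Notch2 (chr3:98013527-98150361, plus strand), a receptor also found in neural progenitors, was called by both FGFR1 libraries from NCs and by RXR in ESCs at the same start. The replicate 1 peak had a fold of 9.11, a −log10 p of 15.2 and 14 fragments (7.65 to 23.5). The replicate 2 peak had the highest fold and −log10 p of that library in any receptor window, with a fold of 11.4, a −log10 p of 34.9 and 42 fragments (30.3 to 56.8). Their summits were 72 bp apart, on either side of the start. RXR in ESCs had 3 peaks within 485 bp after the start, with a −log10 p of 10.2, 7.12 and 8.11, the first of them overlapping both FGFR1 peaks.

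Inside Notch2, which held 22 of the 98 peaks, 1 site stood out. In an intron 77.1 kb from the start RXR in ESCs had a −log10 p of 36.4 (rank 644 of 30586) and FGFR1 replicate 1 in NCs one of 35.9 (rank 817 of 46137). Nur77 had peaks there too, at 14.1 in ESCs and 12.1 in NCs. All 4 peaks cover the alternating repeat printed above, and neither FGFR1 in ESCs nor FGFR1 replicate 2 had a peak at it. The other 12 sites of the gene body held 1 or 2 peaks each, with a −log10 p of at most 14.0.

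Notch3 (chr17:32120820-32166852, minus strand), a receptor known from vascular smooth muscle, was called by FGFR1 replicate 1 and by Nur77 in NCs, but not by FGFR1 replicate 2. The replicate 1 peak at the start was weak, with a fold of 5.83 and a −log10 p of 8.80. The stronger one, at 15.9, and the Nur77 peak, at 14.1, sat 696 and 693 bp upstream of the RefSeq start on the repeat printed above. FGFR1 replicate 2 had its only Notch3 peak in a coding exon 23.6 kb into the gene, with a −log10 p of 6.04, where FGFR1 replicate 1 had 12.6 and RXR in ESCs 12.0. Nur77 in NCs and H3.3 shared another coding exon 34.7 kb into the gene, with 7.67 and 7.96. The Notch3 start itself therefore had an FGFR1 peak in 1 of the 2 NC libraries.

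Notch4 (chr17:34564268-34588503, plus strand), a receptor known from endothelium, had no peak of any library at its RefSeq start. All 5 of its peaks lay in coding exons near the end of the gene, 21.8 to 23.4 kb from that start, and count as promoter-window peaks because short transcripts without a full coding sequence are annotated there. FGFR1 replicate 1 had a −log10 p of 13.5, FGFR1 replicate 2 had 20.8 and 22.1, and RXR in ESCs had 8.94 at the same site. With protein-coding transcripts alone Notch4 was not called by any library.

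**Figure D3:**
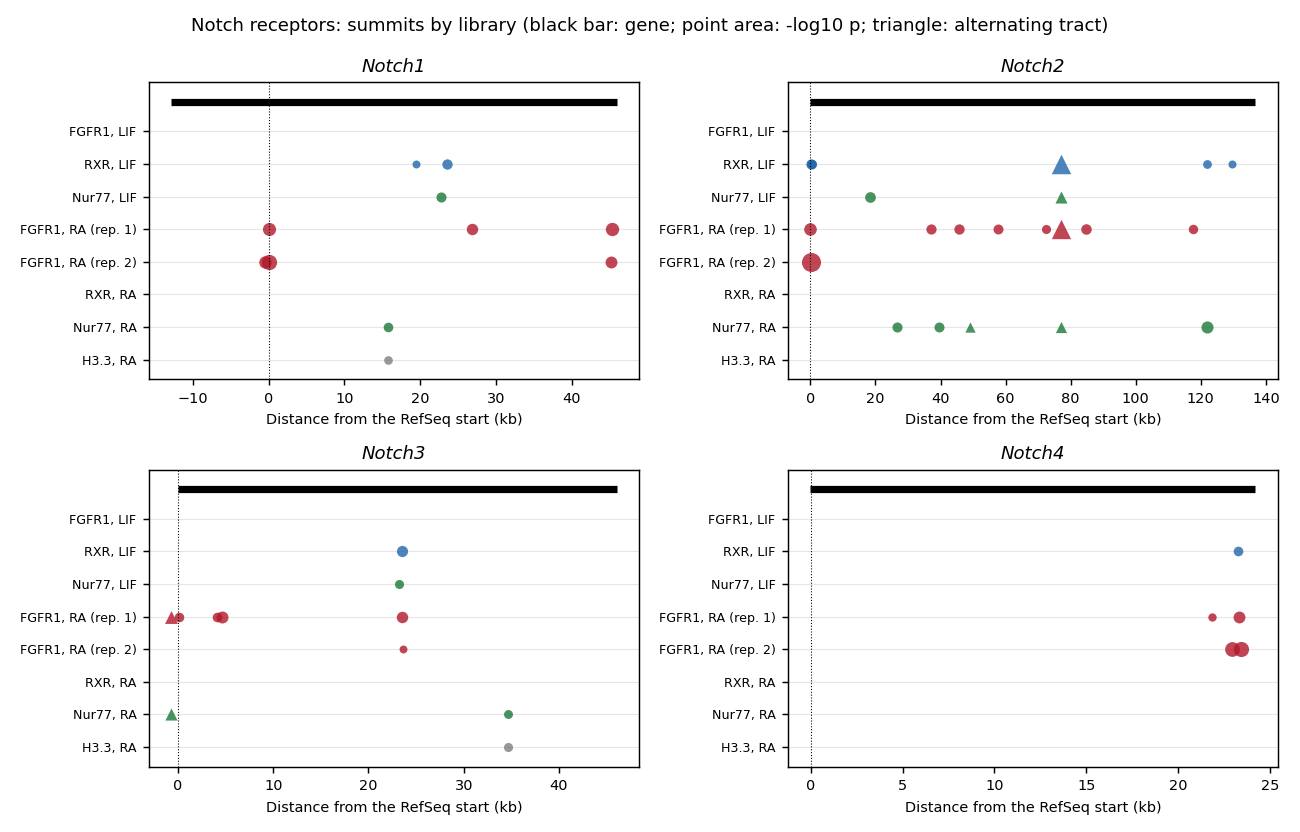
Peak summits of the 8 libraries (rows) along the 4 receptor genes, by distance from the RefSeq start in kb, positive into the gene. The black bar is the gene, point area the −log10 p, and triangles are peaks on an alternating tract of at least 20 bp. Both FGFR1 rows from NCs have a point at the starts of Notch1 and Notch2, and the Notch4 points stand 21.8 to 23.4 kb from the start.

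Of the ligands, Dll1 was called in the most libraries, 5 of 8, missing FGFR1 in ESCs, Nur77 in NCs and H3.3. This ranking was not kept when the nearest start had to belong to the gene. Dll1 then lost the calls of Nur77 in ESCs and RXR in NCs, while Dll3 and Jag2 kept all of theirs. Dll1 (chr17:15367354-15376872, minus strand) encodes the Delta ligand known for its role in neurogenesis and somite formation. Among the promoter-window peaks of FGFR1 replicate 2 at the 10 genes, the one at the Dll1 start had the highest fold and −log10 p. It had a fold of 13.5, a −log10 p of 51.8, 60 fragments (45.8 to 77.2) and rank 1254 of 14082. Replicate 1 had its peak 12 bp from that summit, with a fold of 6.61, a −log10 p of 11.5 and 15 fragments (8.40 to 24.7), and a stronger one of 16.7 in an intron 523 bp upstream of the RefSeq start. At the other end of the gene, 6.7 to 7.1 kb from that start, replicate 1 had peaks of 7.34 and 7.37 and RXR in ESCs one of 10.6, which did not overlap each other.

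The second Dll1 site lay in a coding exon 1.0 kb into the gene and was shared by more antibodies than any other promoter-window site. Its −log10 p was 11.1 for RXR in ESCs, 11.1 for Nur77 in ESCs, 12.2 for RXR in NCs and 9.24 for FGFR1 replicate 1 in NCs. These 4 peaks rested on 13 to 16 fragments each. A start of the long noncoding gene A930024N18Rik lies 182 to 220 bp from the summits and is nearer than any start of Dll1, so these peaks cannot be assigned to Dll1 by distance. This was the only site at any of the 10 genes where RXR peaks of the 2 states overlapped.

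Dll3 (chr7:28293553-28302238, minus strand) encodes a divergent ligand that acts inside the cell that makes it. It was called only in NCs, by both FGFR1 libraries, RXR and Nur77. FGFR1 replicate 1 had a fold of 8.16, a −log10 p of 15.3 and 18 fragments (10.7 to 28.4), and replicate 2 a fold of 6.99, a −log10 p of 17.8 and 28 fragments (18.6 to 40.5), with summits 117 bp apart. The RXR peak overlapped both, at 9.93. This site is a coding exon 7.1 to 7.3 kb from the RefSeq start, near the start of an annotated transcript with a retained intron. The Nur77 peak, at 6.26, lay in another exon and ranked 25636 of 25995. Like Notch4, Dll3 was not called when protein-coding transcripts alone were used.

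Dll4 (chr2:119325784-119335962, plus strand), the ligand known from vessel sprouting, was the only one of the 10 genes without a promoter-window peak in any library. In NCs it had 2 peaks in a coding exon 6.6 to 6.8 kb into the gene, FGFR1 replicate 1 at a −log10 p of 11.0 and RXR at 8.89, which did not overlap. A peak in these lists took at least 4 to 8 fragments at its summit, so weaker binding was not detectable. No promoter-window peak in any of the 8 lists was also the pattern of 29.8% of protein-coding genes.

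Jag1 (chr2:137081456-137116644, minus strand), a Jagged ligand of many tissues, had an FGFR1 peak upstream of its start in both NC libraries, but at different places. The replicate 2 peak had a fold of 13.0, a −log10 p of 47.1 and 55 fragments (41.4 to 71.6), 401 bp upstream of the RefSeq start. The replicate 1 peak had a fold of 7.76, a −log10 p of 12.3 and 12 fragments (6.20 to 21), 1020 bp upstream, and 451 bp separated their nearest ends. A second replicate 1 peak, at 7.82, lay by an internal transcript 31.5 kb into the gene. RXR in ESCs had a peak of 6.95 in the first untranslated exon. In an intron 6.5 to 6.6 kb into the gene, FGFR1 replicate 1 had 11.9 and RXR in NCs 11.6, overlapping by their ends.

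Jag2 (chr12:112907819-112929776, minus strand) was called in 4 libraries at 4 places that did not overlap. RXR had a −log10 p of 5.96 in ESCs and 9.63 in NCs, the latter 81 bp inside the RefSeq start, Nur77 in NCs had 7.71, and FGFR1 replicate 1 had 8.84 near a short transcript 16.1 kb into the gene. All 4 fell below a −log10 p of 10, and FGFR1 replicate 2 had no peak in Jag2. The RXR peak of ESCs held an alternating tract of exactly 20 bp.

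**Figure D4:**
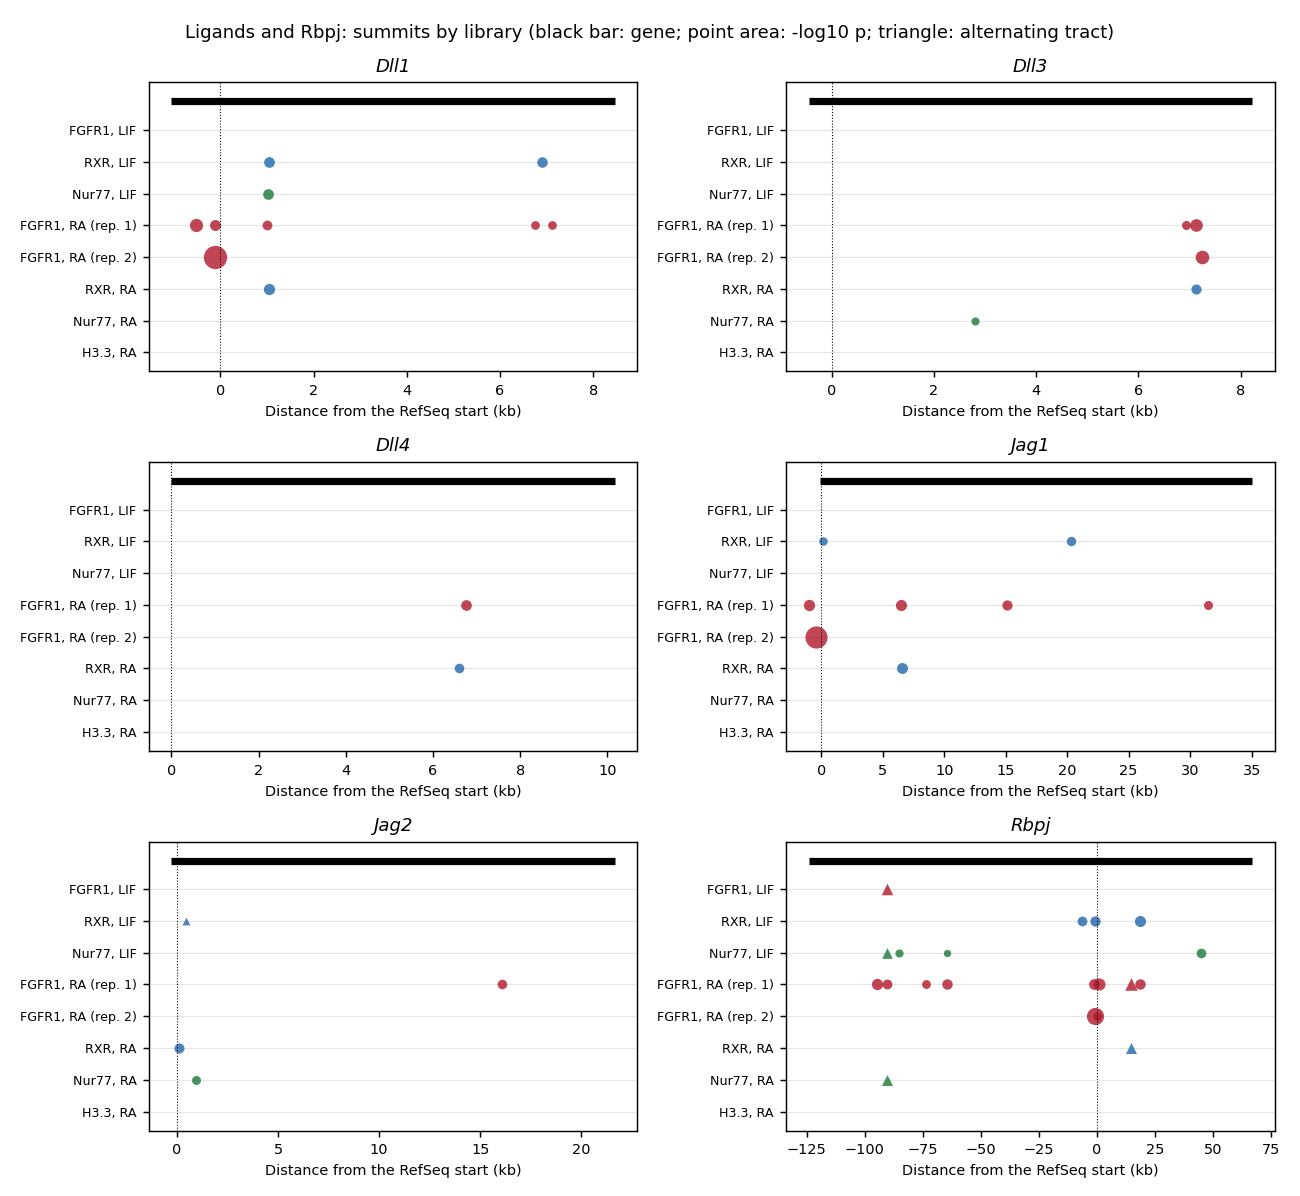
Peak summits of the 8 libraries (rows) along the 5 ligand genes and Rbpj, by distance from the RefSeq start in kb (the first of 2 for Dll1 and Rbpj), positive into the gene, with symbols as for the receptors. The FGFR1 replicate 2 points at the starts of Dll1 and Jag1 are the largest, with a −log10 p of 51.8 and 47.1, and Dll4 has points only in its body.

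Rbpj (chr5:53466152-53657362, plus strand), the mediator that all 4 receptors act through, had peaks in 7 of the 8 libraries and promoter-window peaks in 4. FGFR1 in NCs was found around its main starts in both libraries without any overlap. Replicate 2 had a peak 1005 bp upstream of the RefSeq start, with a fold of 8.70, a −log10 p of 28.3 and 41 fragments (29.4 to 55.6), and a weak one, at 7.48, 68 bp upstream of the nearer of the 2 RefSeq starts. Replicate 1 had 11.2 at 1259 bp upstream and 14.0 at 569 bp downstream of the nearer start, and the nearest ends of the 2 libraries' peaks were 47 bp apart. RXR in ESCs had a peak of 10.1 inside the stronger replicate 2 peak. Nur77 in ESCs had one of 9.0, by a transcript 44.5 kb downstream of the main start.

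The only FGFR1 peak of ESCs at any of the 10 genes lay in an Rbpj intron 90.6 kb upstream of the main start, on the repeat printed above, with a fold of 8.16, a −log10 p of 12.8 and 11 fragments (5.49 to 19.7). Nur77 had peaks at the same place in ESCs (10.9) and in NCs (11.6), and FGFR1 replicate 1 had one in NCs (9.37) beside it. The last of the 4 overlapped the others but held only the edge of the repeat. At another intron site, 14.5 kb downstream of the main start, FGFR1 replicate 1 (15.1) and RXR (11.6) in NCs shared an alternating run of 61 bp.

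Of the 98 peaks, 13 covered an alternating tract of at least 20 bp, 10 in gene bodies and 3 in promoter windows. These repeats were common in most lists, from 21.1% of all peaks in FGFR1 replicate 1 to 51.7% in FGFR1 of ESCs, and rare in FGFR1 replicate 2 at 1.26%, where none of the 12 peaks at these genes held one. Of the 4 sites where the peaks of 2 or more libraries met on such a tract, 1 lay in a promoter window, at Notch3. Their part in these calls was not tested, but leaving out all such peaks left the FGFR1 counts at 9 and 7 in NCs and removed Jag2 from the RXR calls in ESCs and Notch3 from the Nur77 calls in NCs.

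The 2 FGFR1 libraries from NCs could be compared site by site. Their promoter-window peaks overlapped by at least 1 bp at 5 of the 10 genes, Notch1, Notch2, Notch4, Dll1 and Dll3, while at Jag1 and Rbpj both had peaks that did not meet. At 3 of these 5 genes, Notch1, Notch2 and Dll1, the summits of overlapping peaks lay within 100 bp. Of the 18 window peaks of replicate 1, 5 (27.8%) overlapped replicate 2, and of the 10 of replicate 2, 6 (60%) overlapped replicate 1. No such share over all peaks is given, so these counts cannot show whether the 10 genes differ from the rest. The 2 libraries differed in fragment length (72 and 153 bp), which was taken as the width of the narrowest peak in each list. They also differed in median peak width (89 and 311 bp). Their −log10 p values are therefore given side by side and not compared.

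Overlap between antibodies in the windows was counted the same way. Of the 9 RXR window peaks in ESCs, 3 overlapped FGFR1 replicate 1 of NCs, at Notch2, Notch4 and Dll1, and 3 overlapped replicate 2, at Notch2, Notch4 and Rbpj. Within NCs, 2 of the 3 RXR window peaks overlapped FGFR1 replicate 1, at Dll1 and Dll3, and 1 of the 3 Nur77 window peaks did, at Notch3. None of the 3 Nur77 peaks overlapped an RXR peak in the same cells. Here too no share over all peaks is given, so neither overlap nor its absence can be read as particular to these genes.

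Sequence words were searched on both strands in the 100 bp around each summit. The words were TGGGAA for RBPJ, AGGTCA for nuclear receptors, TGACGTCA for the CRE of CREB, CCGGAAGT for ETS factors, CACGTG for the E-box, GGGCGG for the GC box, and the word of NRF1. The GC box was found in 11 of the 45 window peaks and in 2 of the 53 gene-body peaks. By library its share was near that of all peaks, at 12.8% of the FGFR1 replicate 1 peaks beside 13.2% of the list, 25% of the replicate 2 peaks beside 26.9%, and 11.1% of the RXR peaks in ESCs beside 15.1%. TGGGAA was found in 2 window peaks, at Notch3 (FGFR1 replicate 1) and at Rbpj (FGFR1 replicate 2), and AGGTCA in 3, at Dll1 (both FGFR1 libraries) and Rbpj (Nur77 in ESCs). Gene-body peaks held TGGGAA in 1 and AGGTCA in 3. Of the 39 FGFR1 replicate 1 peaks 5.13% held TGGGAA (4.39% of the list) and 10.3% AGGTCA (5.09%). Of the 12 replicate 2 peaks 8.33% held TGGGAA (6.11%) and 8.33% AGGTCA (3.67%). The E-box was found in 1 window peak and 2 gene-body peaks, all of replicate 1 (7.69% beside 6.48%). No RXR peak at these genes held AGGTCA, and no peak held the CRE, ETS or NRF1 word. Among all peaks AGGTCA was found in 4.53% for RXR in ESCs and 3.46% in NCs, so none among 18 and 6 peaks is not a difference these numbers could show.

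The same words were counted in 300 bp RefSeq promoters, which all 10 genes had. A gene was counted when at least 1 of its RefSeq promoters held the word. GGGCGG was present in 7 of the 10, beside 51% of the 16522 protein-coding genes with a RefSeq promoter. It was absent at Dll1, Jag1 and Notch4. TGGGAA was present at Rbpj alone, beside 27.2%, and AGGTCA at Dll1 alone, beside 16.4%. CACGTG (9.18% of all), CCGGAAGT (5.94%), TGACGTCA (2.64%) and the NRF1 word (1.53%) were found in none of the 10. The 12 RefSeq promoters of these genes had a median GC content of 64.2%, beside 57% over protein-coding genes, and ranged from 52% at Dll3 to 86% at Jag2. The Notch4 promoter had the fewest CpG, 5, and the Jag2 promoter the most, 63.

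Another 45 genes of the pathway were counted by role. Among them Lfng and Nrarp, and Notch1 among the 10, were discussed by the study from these same libraries, so their calls are no independent evidence. FGFR1 was called at 9 of the 45 genes in ESCs and at 31 in each NC library, 23 of them in both. RXR was called at 28 in ESCs (62.2%, background 46.4%) and 10 in NCs (22.2%, background 26.2%). Nur77 was called at 15 in ESCs (33.3%, background 29.8%) and 16 in NCs (35.6%, background 30.9%). H3.3 was called at 4 (8.89%, background 17.9%). In percent of the 45 genes FGFR1 had 20% in ESCs and 68.9% in each NC library, against the backgrounds of all protein-coding genes given above.

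By role, the 4 corepressor genes counted (Spen, Ncor1, Hdac1, Ctbp1), whose products sit on RBPJ in the absence of Notch, were all called by FGFR1 in both NC libraries and by none of the FGFR1 peaks in ESCs. Over all protein-coding genes 42.6% were called in both NC libraries, and 26.0% in both and not in ESCs. The strongest of these was Ncor1, with a −log10 p of 24.5 and 52.1. Both NC libraries also called 4 of 7 genes of receptor cleavage, 6 of 9 of the inhibitor and turnover genes, 3 of 4 genes of ligand endocytosis, 3 of 5 genes of receptor glycosylation, 2 of 6 coactivator genes and 1 of 3 genes of other ligands. With so few genes in a role, these counts were not tested against the share over all genes. The 7 Hes and Hey target genes stood at the other end. None was called in both FGFR1 libraries from NCs, replicate 2 alone called Hes1 (8.06) and Hey2 (13.9), and replicate 1 called none.

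Of these 45 genes, those called in at least 6 of the 8 libraries were Adam10 (7), Dner (7), Dtx4 (6), Ep300 (6), Itch (7), Maml1 (6) and Mib1 (6). The share of all protein-coding genes called that often is not given, so this list shows no trait of the pathway. ADAM10 cuts the receptor, Mind bomb 1 marks the ligand for endocytosis, and MAML1 and p300 are coactivators of the RBPJ complex. Those called in no library were Hes3, Hes5, Hes7 and Heyl, the pattern of Dll4 and of 29.8% of protein-coding genes.

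**Figure D5:**
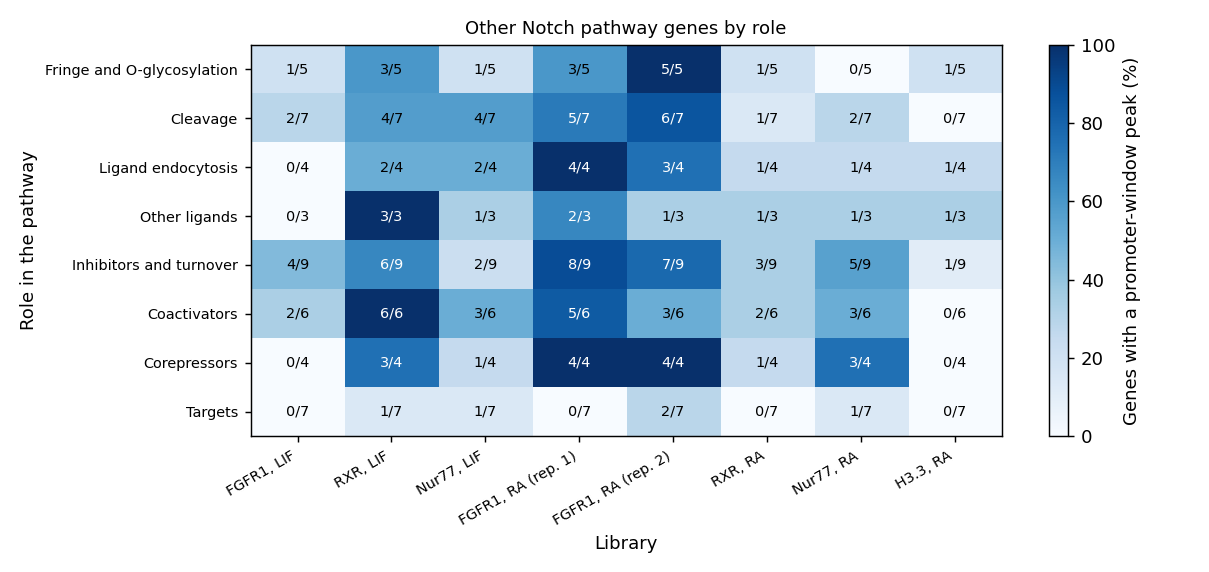
Number of called genes over the number in each role for the 45 other pathway genes (rows) in each library (columns), with shading for the percentage. The corepressor row reads 4 of 4 in both FGFR1 columns from NCs and 0 of 4 in ESCs, and the target row at most 2 of 7.

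The pattern of calls over the 8 libraries was compared between genes, as the full set of yes or no calls. Notch2, Notch4 and Jag1 had the same pattern, RXR in ESCs with both FGFR1 libraries in NCs, which 3.31% of protein-coding genes share, among them Hdac1, Mib2 and Nrarp. Notch1, called in the 2 FGFR1 libraries from NCs alone, had the pattern of 3.34% of genes, Dtx3, Furin and Lfng among them. Dll3 shared its pattern with Ctbp1 and Dtx2 and with 0.269% of all genes. None of the 45 other pathway genes had the pattern of Notch3 (0.633% of genes), Dll1 (1.13%), Jag2 (0.323%) or Rbpj (1.80%).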

How the data were processed

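The authors aligned reads with Bowtie 1.0 to mm10, keeping reads with a single place, and called peaks per library with MACS2 at p 1e-05, without a named control and without pooling. The deposited lists give a score, a fold (ratio of summit pileup to local background, each with 1 added), −log10 p and −log10 q per summit. From the deposited fold and −log10 p, whole fragments and background at each summit were solved within 0.002 of the −log10 p. The fragment length was not measured but taken as the width of the narrowest peak in a list. The lowest background over that length gave the depth. Windows and genes came from GENCODE M21, while the study used UCSC genes. Sequences came from the GRCm38.p6 genome and RefSeq promoters. Scripts used Python, numpy, pandas, scipy and pysam and were tested on simulated data. Groups came from sample titles. The 10 genes, the list of pathway genes and the words were chosen with earlier results of these data known. Of the list, 45 genes were counted and 2 are not reported here. Named pathway genes were those called in at least 6 of 8 libraries or in none (at most 8 of each), and at most 3 per member with the same pattern of calls. Alternatives were a −log10 p of 10, equal peak numbers, 1 bp overlap, summit position, 1 kb promoters, protein-coding transcripts, nearest start, no alternating tracts, summits within 100 bp and each FGFR1 replicate left out. Scaling to a common depth was added after seeing the data.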

Additional observations from a re-analysis of the deposited data

How the results depend on the processing

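The counts of called genes among the 10 were recomputed under each alternative. The FGFR1 difference between NCs and ESCs kept its direction in all of them, and was 7 to 9 with 1 replicate left out, as was the mean FGFR1 count in NCs. The FGFR1 count in ESCs was 0 from the outset, and most alternatives only drop peaks or starts. Such settings could not turn this direction, so its being kept is no evidence for it. With a −log10 p of at least 10 the counts were 3 for RXR in ESCs, 1 for RXR in NCs and 1 for Nur77 in each state, a Nur77 difference of 0. With equal peak numbers RXR had 0 in ESCs, so its difference turned from -3 to 3, Nur77 had 1 in each state with a difference of 0, and the FGFR1 replicates shared 4 genes and coincided at 3. With 1 kb promoters Nur77 in ESCs had 1. With protein-coding transcripts FGFR1 in NCs had 6 and 5, a mean of 5.5, and the replicates coincided at 3 genes. Nur77 in ESCs then had 0, and RXR and Nur77 in NCs had 1 each. With the nearest start required Nur77 had 1 in ESCs and a difference of 2. Without alternating tracts the Nur77 difference was 0. Scaled to a common depth, an alternative chosen after seeing the data, RXR had 0 in ESCs and its difference turned to 3. With summits within 100 bp the FGFR1 replicates coincided at 3 genes. Overlap of 1 bp and summit position moved no count. Of 113 recomputed values 90 stayed within 1.5 times the value given. These 90 include the counts of 0 for FGFR1 in ESCs and for H3.3, which dropping peaks could not move. The tally is therefore no measure of how stable the counts are. No paired analysis was possible because the result comes from no test and FGFR1 in ESCs had 1 library. The depth of the RXR and H3.3 libraries from NCs limits what a missing peak can mean there.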
